A study of Mus musculus with 6 samples.

Results

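The 31 genes described here mark the blood vessels of the brain. They were taken from the table of raw counts by gene symbol in the GENCODE mouse annotation. All 31 were found among 39017 gene identifiers and all passed the filter on low counts. Of these, 22 mark endothelium, the inner lining of vessels, and 9, from Pdgfrb to Myl9, mark mural cells, the pericytes and smooth muscle cells wrapped around it. The libraries hold RNA from corpus callosum, the white matter tract between the hemispheres, of young adult female C57BL/6 mice aged 8 to 10 weeks. All mice carried RiboTag and Olig1-Cre, so that ribosomal protein RPL22 bears an HA tag where Cre has been active, and an anti-HA antibody pulled down tagged ribosomes with their RNA. Vehicle (control) replicates 24, 26 and 27 were compared with replicates 30, 31 and 32 on a diet with 0.2% cuprizone, a copper chelator that injures oligodendrocytes and strips myelin. The protocol describes feeding for 6 or 9 weeks and 3 weeks of recovery, and the schedule of these cuprizone libraries is not stated. The labels do not say that each library came from a separate mouse, so p-values measure the spread between these libraries, which may be in part technical.

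Brain endothelial cells are sealed to each other by tight junctions and carry transporters that admit nutrients and expel foreign compounds, which together form the blood-brain barrier. Pericytes share the basement membrane of capillaries and are recruited by platelet-derived growth factor acting on Pdgfrb, and smooth muscle cells give arterioles their contractile wall. The pull-down is meant for cells in which Olig1-Cre was active, and through which cells vascular transcripts entered it was not tested.

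Some libraries stood apart before any vascular gene was considered. Cuprizone replicate 32 differed more from replicates 30 and 31 (chi-square over its degrees of freedom 85.1 and 101) than those differed from one another (26.6). It also held the most red blood cell RNA, with 117 CPM (counts scaled by library total and TMM factor) over 5 haemoglobin and erythroid genes, against 1.70 to 33.1 CPM in the controls and 2.07 and 8.77 CPM in replicates 30 and 31. Control replicate 27 held transcripts of choroid plexus, with Ttr, which encodes transthyretin, at 4416 CPM against 74.2 and 11.3 CPM in the other controls. Markers of oligodendrocytes were present in every library, and a list of 10 summed to between 59483 and 80954 CPM in control and between 7877 and 14760 CPM in cuprizone libraries. Olig1, whose promoter drives Cre, fell, with means of 1438 ± 184 CPM in control and 661 ± 167 CPM in cuprizone (± SD of 3 libraries, as throughout; log2 fold change -1.12 ± 0.24, SE, edgeR adjusted p = 0.0334). Olig1 belongs to a list of 9 oligodendrocyte progenitor genes, of which edgeR called 2 lower. With each library left out in turn, 0 to 3 of the 9 were called lower, so Olig1 did not pass in every such fit. Total counts were 18549360 to 22381307 per library.

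Vascular transcripts were scarce. In CPM divided by exonic length in kilobases (RPKM), 26 of the 31 members lay below the control median of all tested genes, 4.67 RPKM. The median member was at 0.622 RPKM among endothelial genes and 1.46 RPKM among mural genes, as control means. The highest were Slc2a1 at 39.1 ± 0.991 RPKM, Mfsd2a at 20.7 ± 2.21 RPKM and Tjp1 at 14.2 ± 0.931 RPKM, all counted as endothelial, followed by Myl9 at 9.74 ± 2.44 RPKM and Pdgfrb at 6.02 ± 0.246 RPKM. These levels were each separated by more than their SDs. Genes more restricted to endothelium were far lower, with Cldn5 at 2.22 ± 0.564 RPKM, Pecam1 at 0.230 ± 0.0520 RPKM, Cdh5 at 0.197 ± 0.0493 RPKM and Emcn, the lowest, at 0.0862 ± 0.0384 RPKM. Neighbours in this lower range, such as Pecam1 and Cdh5, did not differ beyond their spread. Mbp, of the myelin sheath, stood at 4058 RPKM on the same scale.

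Of the 31 members 2 rose in cuprizone and none fell, by edgeR's quasi-likelihood test at a Benjamini-Hochberg adjusted p of 0.05 over all 16569 genes tested. Both, Anpep and Myl9, are on the mural list. Across all genes tested 7.57% were called, 1.87% higher and 5.70% lower. Of the members 11 had an unadjusted p under 0.05, where 23.3% of all genes did. DESeq2 called 6 members higher (Flt1, Anpep, Notch3, Acta2, Tagln and Myl9) and Slc2a1 lower, against 5.20% and 8.45% of all genes, and limma-voom called the same 2 as edgeR, against 1.77% higher and 5.87% lower of all genes. Positive log2 fold changes were found for 17 of 22 endothelial and 9 of 9 mural members, with medians of 0.88 and 1.84, where the median over all genes was 0.02 and 52.6% were positive. These medians rest on unequal libraries: relative to the control mean, the median log2 level of the endothelial members was 0.80, -0.13 and 1.53 in cuprizone replicates 30, 31 and 32, and that of the mural members 0.75, 0.30 and 2.74. Without replicate 32 the medians of fold changes were 0.35 and 0.89. The libraries are pull-downs from tissue, and CPM gives a share of each library. More cells of a type, more RNA per cell and a larger share of RNA from untagged cells thus cannot be told apart.

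**Figure D1:**
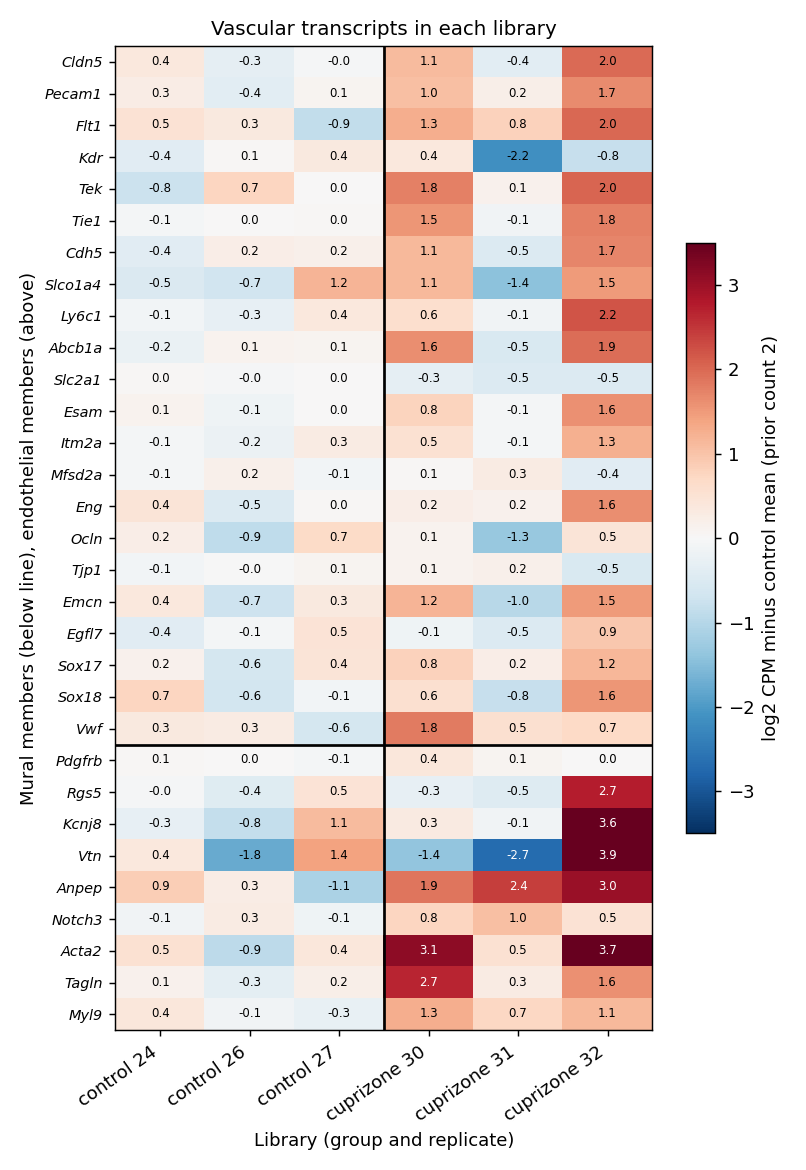
Log2 CPM of each of the 31 members (rows, endothelial above the line and mural below) in each of the 6 libraries (columns), as the difference from the mean of the 3 controls. Cuprizone replicates 30 and 32 are mostly red in the endothelial block while replicate 31 is near or below the controls, and Rgs5, Kcnj8 and Vtn are high in replicate 32 alone.

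The 3 cuprizone libraries did not behave alike for the endothelial genes. Replicate 32 was above all controls for 17 of the 22 and replicate 30 for 15, while replicate 31 was above them for 4 and below them for 11. Replicate 32 was the highest library of the 6 for 16 of the 22, as it was for 4467 of the 16569 genes tested. Replicate 31 was the lowest for 11, against 8.08% of all genes. Replicates 30 and 32 each exceeded replicate 31 in 20 of the 22 genes. For this count, and for the counts of single libraries above or below all controls, the share over all genes was not computed. Those counts therefore cannot be set apart from the behaviour of genes in general.

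Receptors for vascular growth factors are the classic identity genes of endothelium. Flt1, a receptor for VEGF, was at 10.8, 9.58 and 4.08 CPM in control replicates 24, 26 and 27 and at 18.4, 13.3 and 30.3 CPM in cuprizone replicates 30, 31 and 32. The groups did not overlap, with every cuprizone library above every control, as for 2 endothelial members and 12.6% of all genes tested. Its log2 fold change was 1.34 ± 0.42 (SE), with an edgeR adjusted p of 0.112 and a DESeq2 adjusted p of 0.0175. Kdr, the main signalling receptor for VEGF, went the other way in value, at 2.83, 3.91 and 4.83 CPM in control and 4.87, 0.770 and 2.12 CPM in cuprizone. Its lowest library was replicate 31, its groups overlapped, and the log2 fold change was -0.58 ± 0.59. Tek and Tie1 encode the angiopoietin receptor and its partner. Tek was at 0.295 to 1.02 CPM in control and at 2.16, 0.641 and 2.64 CPM in cuprizone. Tie1 was at 0.589, 0.623 and 0.641 CPM in control and at 1.98, 0.556 and 2.36 CPM in cuprizone, so that replicates 30 and 32 were high and replicate 31 lay below the controls. The log2 fold changes were 1.5 ± 0.63 for Tek and 1.39 ± 0.54 for Tie1, and neither passed (edgeR adjusted p of 0.206 and 0.181). Without cuprizone replicate 31, Tie1 passed (1.80, edgeR adjusted p = 0.0202). Eng, a co-receptor for TGF-beta family ligands, was at 5.33 to 10.3 CPM in control and at 8.88, 8.42 and 23.6 CPM in cuprizone.

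Junction genes split into those that followed this library pattern and those that did not. Cldn5, the main claudin of brain endothelial tight junctions, was at 4.01, 2.44 and 2.97 CPM in control and at 6.76, 2.35 and 12.4 CPM in cuprizone. Replicate 31 lay below all controls and replicates 30 and 32 above them. The log2 fold change was 1.19 ± 0.55 (edgeR adjusted p = 0.252), and without replicate 31 it was 1.6 with an adjusted p of 0.0444. Cdh5, the cadherin of endothelial adherens junctions, was at 1.89, 0.556 and 2.88 CPM in cuprizone against 0.589 to 0.963 CPM in control, Pecam1 at 3.02, 1.62 and 4.67 CPM against 1.08 to 1.71 CPM, and Esam, another adhesion molecule, at 3.25, 1.75 and 5.71 CPM against 1.64 to 2.0 CPM. All had their highest value in replicate 32 and the second in replicate 30. Ocln, a tight junction protein, was at 3.48, 1.53 and 4.72 CPM in control and at 3.2, 1.11 and 4.06 CPM in cuprizone. Replicate 31 was its lowest library, as for Cldn5, but replicates 30 and 32 lay within the control range (-0.22 ± 0.55). Tjp1, the scaffold ZO-1 found in many cell types, was at 104.9, 109.7 and 119 CPM in control and at 122, 126 and 76.7 CPM in cuprizone. Here replicate 32 was the lowest library rather than the highest, and the log2 fold change was -0.04 ± 0.20.

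Barrier transporters divided in the same way. Abcb1a, the efflux pump P-glycoprotein, was at 0.766, 1.02 and 0.990 CPM in control and at 3.07, 0.599 and 3.82 CPM in cuprizone. Replicate 31 was again below all controls. Its log2 fold change of 1.42 ± 0.63 (edgeR adjusted p = 0.232) was 1.88 without replicate 31, with an adjusted p of 0.0144. Slco1a4, an organic anion transporter, was high in control replicate 27 (5.07 CPM) as well as in cuprizone replicates 30 and 32 (4.82 and 6.23 CPM), and its groups overlapped. Slc2a1, the glucose transporter GLUT1, which glia also make, was at 139.8, 133 and 138 CPM in control and at 110.1, 99.0 and 99.1 CPM in cuprizone. Every cuprizone library was below every control, as for 17.6% of all genes tested, and the spread within each group was small. The log2 fold change of -0.42 ± 0.11 had an edgeR adjusted p of 0.0645 and a DESeq2 adjusted p of 0.00275. Mfsd2a, the lipid transporter of the barrier, stood at 46.5 ± 4.98 CPM and 46.5 ± 10.5 CPM, with replicate 32 the lowest library at 35.2 CPM. The sum of all endothelial members, of which Slc2a1, Mfsd2a and Tjp1 were the most abundant, was 340.1 to 356 CPM in control and 328 to 369 CPM in cuprizone libraries.

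The other endothelial members were low. Vwf, the clotting factor stored in endothelial granules, was at 3.01, 2.89 and 1.51 CPM in control and at 8.57, 3.51 and 3.87 CPM in cuprizone. Its groups did not overlap and replicate 30, not 32, was highest (1.1 ± 0.43, edgeR adjusted p = 0.181). Ly6c1, a surface protein of brain endothelium whose reads may have been split with a close paralog, was at 1.53 to 2.45 CPM in control and at 2.89, 1.71 and 8.96 CPM in cuprizone. Itm2a, a membrane protein rich in brain endothelium, and Emcn, a sialomucin of veins and capillaries, had log2 fold changes of 0.67 ± 0.35 and 0.94 ± 0.74. The transcription factors Sox17 and Sox18, which act in arterial and vascular development, had 0.81 ± 0.43 and 0.65 ± 0.66. Egfl7, a secreted factor of endothelium, had 0.20 ± 0.42, and -0.36 without replicate 32. Egfl7, Sox17, Eng, Slc2a1 and Abcb1a overlap exons of another gene read from the other strand, and it is not known whether counting used strand. Egfl7 also shares 264 exonic bases with Gm20532 and 73 with Mir126a on its own strand. By edgeR and by limma-voom 0 of the 22 endothelial members passed. DESeq2 called 1 higher (Flt1) and 1 lower (Slc2a1), and 6 had an edgeR unadjusted p under 0.05, where 23.3% of all genes did.

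**Figure D2:**
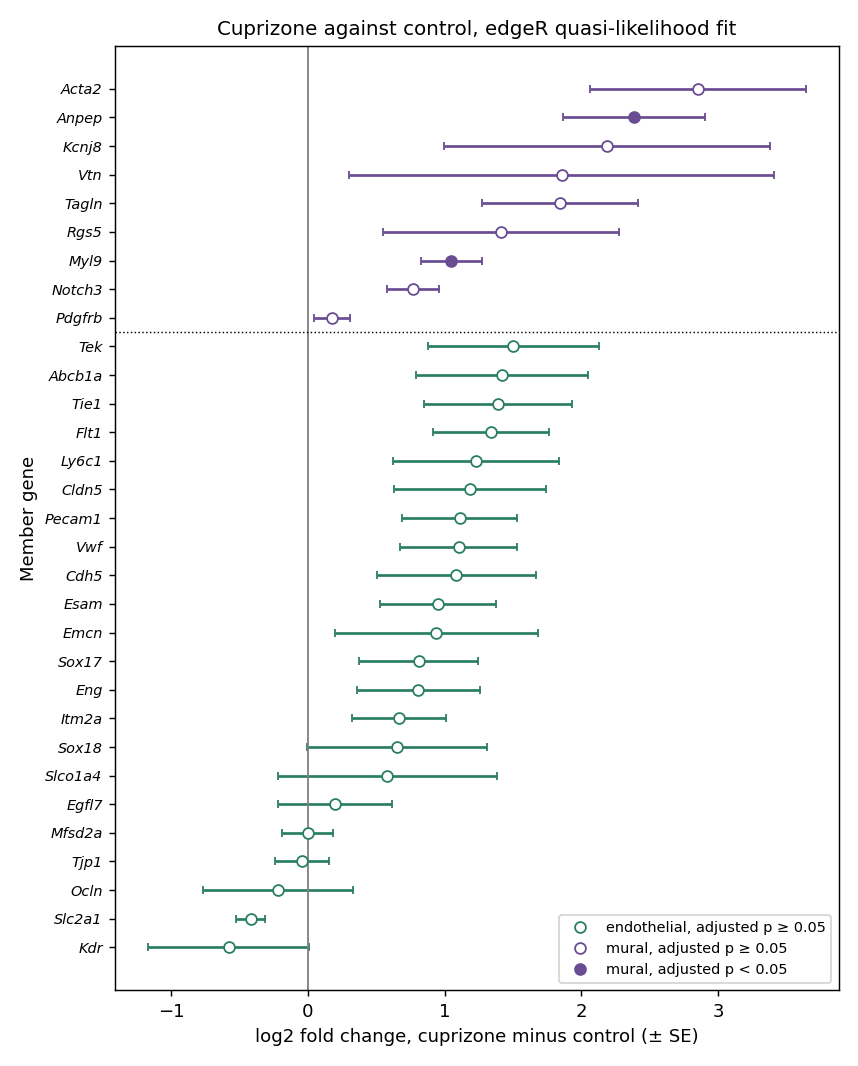
Log2 fold change of each member, cuprizone minus control, with its standard error, from the fit over 6 libraries. Filled points, Anpep and Myl9, passed an adjusted p of 0.05, and most endothelial estimates lie between 0 and 1.5 with wide errors.

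Among the mural genes of pericytes, Anpep rose. It encodes aminopeptidase N (CD13), known on brain pericytes and also on myeloid cells. It was at 2.12, 1.36 and 0.466 CPM in control and at 4.37, 6.5 and 9.81 CPM in cuprizone, and every cuprizone library, replicate 31 included, was above every control. The gene (ENSMUSG00000039062, chromosome 7, 79821803 to 79861059 in GRCm38) had a log2 fold change of 2.38 ± 0.52 and an edgeR adjusted p of 0.0373. That p was 0.0588 to 0.129 when control replicate 26 or 27 or any cuprizone library was left out, with log2 fold changes of 1.98 to 2.63. Microglia genes were higher in some of the same libraries. Their list of 9, all detected, summed to 1125 to 2140 CPM in control and 1629 to 3653 CPM in cuprizone libraries, and their median log2 level minus the control mean was 0.60, -0.28 and -0.34 in the controls and 0.25, 0.49 and 1.34 in cuprizone replicates 30, 31 and 32. By edgeR 0 of the 9 passed (1 with unadjusted p under 0.05), DESeq2 called 1 and limma-voom 0. Their part in the rise of Anpep was not tested.

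Pericyte identity genes did not share that pattern. Rgs5, a regulator of G protein signalling and a leading pericyte marker, was at 6.25, 4.70 and 8.91 CPM in control and at 5.27, 4.62 and 43.2 CPM in cuprizone. Only replicate 32 was high, at 9.36 times replicate 31, while replicates 30 and 31 lay within or below the control range. Kcnj8, a pore subunit of potassium channels gated by ATP, was at 0.170 to 0.932 CPM in control and at 0.496, 0.342 and 5.61 CPM in cuprizone. Vtn, which encodes vitronectin and is made by brain pericytes, was at 6.78, 1.47 and 14.0 CPM in control and at 1.94, 0.727 and 78.1 CPM in cuprizone. Vtn ranged 107-fold within the cuprizone group and 9.53-fold within the control group. The log2 fold changes of Rgs5, Kcnj8 and Vtn were 1.42 ± 0.86, 2.19 ± 1.19 and 1.86 ± 1.55, and without replicate 32 they were -0.42, -0.15 and -2.48. Red blood cell genes moved in the same library, as given above, and control replicate 27, the highest control for both Vtn and haemoglobin genes (33.1 CPM), also had the highest control values of Rgs5 and Kcnj8. The part of blood in these values was not tested.

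Some further pericyte genes, named after their values were seen, had most of their reads in replicate 32. They belong to a list of 20 further mural genes, of which 8 did not pass the filter on low counts, and 5 of those 8 were highest in replicate 32. Of the 12 that passed, 2 were highest there, and their median log2 level in replicate 32 was -0.43 relative to the control mean. Abcc9, the partner subunit of the Kcnj8 channel, had 8, 4 and 11 reads in the controls, 9 and 2 reads in replicates 30 and 31 and 115 reads in replicate 32. Ndufa4l2 had 77 reads there and at most 9 elsewhere. Higd1b and Tbx18 had 26 and 22 reads there and at most 1 in any other library. The fibroblast gene Dcn followed, with 71 reads in replicate 32 and 1 to 9 elsewhere. None of these 5 genes passed the filter. Fitted without it, their edgeR adjusted p was 0.374 to 0.458. Dcn belongs to a list of 10 perivascular fibroblast genes, of which 4 passed the filter. Of those 4, 1 was highest in replicate 32, and their median log2 level there was 0.17 relative to the control mean.

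Pdgfrb and Notch3 behaved differently from the other pericyte genes. Pdgfrb, the receptor that recruits pericytes, was at 34.2, 33.2 and 31.6 CPM in control and at 43.6, 35 and 33.2 CPM in cuprizone. Its values differed little between libraries, replicate 32 was not raised, and the log2 fold change was 0.18 ± 0.13 (edgeR adjusted p = 0.472). Notch3, the Notch receptor of mural cells, was at 11.2, 15 and 11.1 CPM in control and at 20.8, 25.4 and 17.4 CPM in cuprizone. All cuprizone libraries were above all controls and replicate 31 was the highest (0.77 ± 0.19, edgeR adjusted p = 0.0571). Notch3 passed with DESeq2 (adjusted p = 0.00734) and without cuprizone replicate 32 (0.89, edgeR adjusted p = 0.0303), and shares exon bases with an antisense gene.

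Smooth muscle genes were high in replicates 30 and 32 and lower in 31. Myl9, the regulatory light chain of smooth muscle myosin (ENSMUSG00000067818, chromosome 2, 156775420 to 156781658), was at 14.6, 10.1 and 9.26 CPM in control and at 27.2, 18.6 and 24.6 CPM in cuprizone. Every cuprizone library exceeded every control, and means were 11.3 ± 2.84 CPM and 23.5 ± 4.43 CPM. The log2 fold change was 1.05 ± 0.22 with an edgeR adjusted p of 0.0329, which became 0.0583 to 0.138 once control replicate 26 or 27, or else cuprizone replicate 30 or 32, was dropped. Acta2, smooth muscle actin (ENSMUSG00000035783, chromosome 19, 34241090 to 34255590), was at 2.65, 0.907 and 2.39 CPM in control and at 16.5, 2.65 and 23.8 CPM in cuprizone. Replicate 31 lay at the level of the highest control, so the groups touched. Its log2 fold change of 2.85 ± 0.79, the largest of the 31, had an edgeR adjusted p of 0.0799, and without replicate 31 the values were 3.34 and 0.00742. Tagln, the actin-binding protein transgelin, was at 2.42, 1.7 and 2.5 CPM in control and at 14.3, 2.69 and 6.84 CPM in cuprizone. Replicate 31 again lay only just above the controls (1.84 ± 0.57, edgeR adjusted p = 0.109, and 2.26 with adjusted p = 0.0189 without replicate 31). Of 1988 exonic bases of Tagln, 1241 are shared with the antisense gene Gm48529 and 108 with Pcsk7 on the opposite strand. Reads of Acta2 may have been split with other actins, whose coding sequences are close to it. In control, Myl9 stood at 9.74 ± 2.44 RPKM, against 0.903 ± 0.428 RPKM for Acta2 and 1.11 ± 0.222 RPKM for Tagln. Which cells the Myl9 reads came from was not tested.

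**Figure D3:**
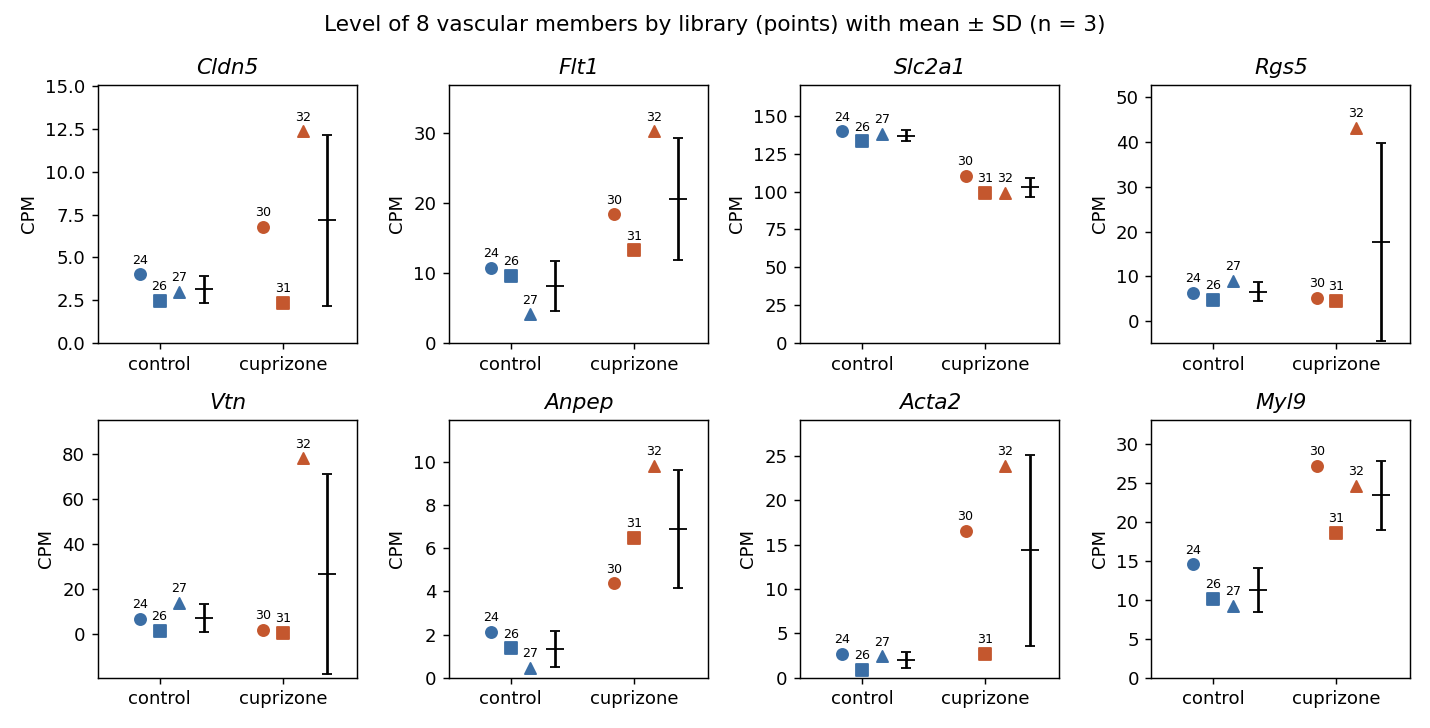
CPM of 8 members in each library (points labelled by replicate) with the mean and SD of each group (n = 3). Anpep and Myl9 separate the groups, Slc2a1 is lower in all cuprizone libraries, Cldn5 and Acta2 are high in replicates 30 and 32 only, and Rgs5 and Vtn in replicate 32 only.

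Promoter sequence is shown for the 2 members that passed and for Flt1, the endothelial member with the smallest adjusted p among those with a positive fold change. The sequences, from RefSeq in GRCm38.p6, run 5′ to 3′ on the gene's strand within 250 bases before a RefSeq start, without annotated exon bases. For Anpep that start lies inside the gene span given above (79821803 to 79861059). It is thus an internal start and not the 5′ end of the GENCODE gene. Capitals mark motif matches.
Myl9, chr2:156775214-156775419, plus strand: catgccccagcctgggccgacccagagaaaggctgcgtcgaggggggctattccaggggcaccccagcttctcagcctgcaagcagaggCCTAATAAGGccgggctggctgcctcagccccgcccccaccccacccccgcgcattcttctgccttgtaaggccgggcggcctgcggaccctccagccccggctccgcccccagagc
Anpep, chr7:79848211-79848460, minus strand: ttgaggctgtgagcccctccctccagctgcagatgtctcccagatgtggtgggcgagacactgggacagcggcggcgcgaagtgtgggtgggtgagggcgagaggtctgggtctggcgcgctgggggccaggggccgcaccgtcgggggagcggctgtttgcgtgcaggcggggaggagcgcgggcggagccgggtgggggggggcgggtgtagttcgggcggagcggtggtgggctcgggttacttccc
Flt1, chr5:147726012-147726261, minus strand: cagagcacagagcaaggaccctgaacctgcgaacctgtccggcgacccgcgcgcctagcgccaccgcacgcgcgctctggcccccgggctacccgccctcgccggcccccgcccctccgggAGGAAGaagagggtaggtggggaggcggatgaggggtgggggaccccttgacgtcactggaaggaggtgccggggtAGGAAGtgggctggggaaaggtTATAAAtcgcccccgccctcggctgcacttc
The capitals are a CArG box, the element bound by serum response factor at contractile genes, in Myl9, and AGGAAG, a core bound by ETS factors of endothelium, and TATAAA in Flt1. Motifs were searched on both strands in windows of 300 bases (250 before to 50 after the start), and no matches overlap in the sequences shown. Of the 31 members 23 had a window. Those without were Pecam1, Cdh5, Esam, Sox17, Sox18, Vwf, Pdgfrb and Tagln. A CArG box was in 1 of 7 mural and 0 of 16 endothelial genes, against 1.63% of all 32851 windows. AGGAAG was in 9 of 16 endothelial and 0 of 7 mural genes, against 35.4% of all windows. The SOX motif ACAATG was in 1 of 16 endothelial genes and 0 of 7 mural genes, against 12.6% of all windows, and TATAAA in 3 and 1, against 13.6%. A gene can have several windows, and a match is only a match of letters.

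Other genes of vessels came from 7 lists of 121 genes, of which 98 were tested. By edgeR 4 rose (Slc7a5, Plxnd1, Foxc1 and Acvrl1) and 4 fell (Mcam, Smtn, Smad7 and Nid1). Of all genes tested 1.87% were called higher and 5.70% lower. The median log2 fold change of the 98 was 0.29. DESeq2 called 13 higher and 7 lower, against 5.20% and 8.45% of all genes. Of 28 further endothelial genes 21 were tested and 1 rose. That was Slc7a5, an amino acid transporter of the barrier made in many cells, from 81.4 ± 3.84 CPM to 389 ± 121 CPM (2.26 ± 0.25, edgeR adjusted p = 0.00304). Adgrf5, an adhesion receptor of capillary endothelium, was at 1.05 to 2.15 CPM in control and at 5.82, 1.24 and 6.6 CPM in cuprizone. Among the cuprizone libraries the order was that of Cldn5, but replicate 31 lay within the control range. Ets1, a transcription factor, had a log2 fold change of 0.64 ± 0.24.

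The further mural list did not move with the members. Of 20 genes 12 were tested, 0 rose with edgeR, DESeq2 or limma-voom, and the median was -0.41. By edgeR and limma-voom 2 fell, and by DESeq2 4. Among these 12, 7 had an edgeR unadjusted p under 0.05, in either direction, where 23.3% of all genes did. Mcam, an adhesion molecule of mural and endothelial cells, fell from 126 ± 9.86 CPM to 36.8 ± 13.3 CPM (-1.78 ± 0.25, edgeR adjusted p = 0.00722). Its control mean exceeded the summed control CPM of the 6 pericyte members, Pdgfrb to Notch3 (55.8 to 67.0 CPM). Which cells the Mcam reads came from was not tested. Smtn, the smooth muscle protein smoothelin, fell from 11.3 ± 1.62 CPM to 5.16 ± 0.774 CPM (-1.13 ± 0.19, edgeR adjusted p = 0.0133). For Smtn it reached 0.0660, above 0.05 when control replicate 24 or 26, or else cuprizone replicate 30, was dropped. Of 4380 exonic bases of Smtn, 714 are shared with Gm11946 on the opposite strand. Lmod1, an actin nucleator of smooth muscle, had -0.75 ± 0.19 (edgeR adjusted p = 0.0618). The contractile genes named here thus differed in sign, with Acta2, Tagln and Myl9 positive and Smtn and Lmod1 negative. Smtn and Lmod1 were named for their small adjusted p, and of the 12 tested genes of their list 4 were positive and 8 negative. Myh11 and Cnn1, contractile genes of mature smooth muscle named after their values were seen, had at most 15 reads in any library, both in replicate 30.

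Among signals that shape vessels, single genes passed. In the VEGF, angiopoietin and Notch list 1 of 16 tested rose, Plxnd1, a semaphorin receptor, from 23.8 ± 5.54 CPM to 51.3 ± 5.24 CPM (1.11 ± 0.19, edgeR adjusted p = 0.0146, and up to 0.0620 without control replicate 24 or cuprizone replicate 30). Nrp1, the VEGF and semaphorin co-receptor, had 0.92 ± 0.24 and Hey1, a Notch target, 0.34 ± 0.12, with edgeR adjusted p of 0.0690 and 0.156. Of 18 genes of Wnt signalling and barrier induction 1 rose, Foxc1, a transcription factor of mural and meningeal cells, at 1.77, 0.963 and 0.641 CPM in control and 8.16, 4.19 and 5.94 CPM in cuprizone. All cuprizone libraries were higher (2.43 ± 0.42, edgeR adjusted p = 0.0157, and over 0.05, at most 0.0791, once control replicate 26 or 27, or else cuprizone replicate 30, was dropped). Fzd6, a Wnt receptor, had 0.93 ± 0.28 (adjusted p = 0.102). Foxf2, a pericyte transcription factor, was highest in replicate 32 at 3.77 CPM and had 1.89 ± 0.83 (adjusted p = 0.231).

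Among 14 genes of PDGF and TGF-beta signalling 1 rose and 1 fell. Acvrl1, an endothelial receptor for BMP ligands that works with Eng, was at 5.95, 3.00 and 5.59 CPM in control and at 11.6, 12.3 and 16.8 CPM in cuprizone. All 3 cuprizone libraries were higher, replicate 31 included (1.48 ± 0.29, edgeR adjusted p = 0.0238, and up to 0.0765 without control replicate 27 or cuprizone replicate 30). Smad7, an inhibitor of TGF-beta signalling, fell from 105 ± 17.7 CPM to 32.4 ± 3.94 CPM (-1.70 ± 0.16, edgeR adjusted p = 0.00204), and Smad3 had 0.45 ± 0.13 (adjusted p = 0.0950). Of 11 basement membrane genes 1 fell, Nid1, the linker protein nidogen, from 9.98 ± 2.42 CPM to 1.92 ± 1.65 CPM (-2.38 ± 0.55, edgeR adjusted p = 0.0453). Its adjusted p reached 0.138 in fits on 5 libraries and stayed below 0.05 in 1 of them, that lacking cuprizone replicate 32. It was also 0.0509 with upper-quartile scaling and 0.0508 with no filter on low counts. Hspg2, the proteoglycan perlecan, and Lamb1, a laminin chain, had -0.77 ± 0.23 and 0.57 ± 0.30. Of 6 tested genes of activated endothelium 0 passed with edgeR or limma-voom. DESeq2 called 4 higher, against 5.20% of all genes. The edgeR p before adjustment was under 0.05 for 5, against 23.3% of all genes. Icam1, a leukocyte adhesion molecule, went from 8.73 ± 3.40 CPM to 18.1 ± 3.13 CPM (1.05 ± 0.28, edgeR adjusted p = 0.0736), and Lcn2, a secreted protein that binds siderophores, had 1.55 ± 0.43 (adjusted p = 0.0825).

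Other cell types set the scale for these shifts between libraries. The astrocyte list of 8 had a median log2 level of 0.23, 0.44 and -0.55 relative to the control mean in cuprizone replicates 30, 31 and 32, the reverse of the order among endothelial genes. The smooth muscle members had 2.66, 0.53 and 1.61, and the pericyte members 0.36, -0.01 and 2.88. The summed level of the 6 pericyte members was 55.8 to 67.0 CPM in control and 76.4, 72.6 and 187 CPM in cuprizone, and that of the 3 smooth muscle members 12.8 to 19.6 CPM and 58.0, 23.9 and 55.3 CPM. By these medians, among the cuprizone libraries, replicate 32 was highest for endothelial and pericyte members and replicate 30 for smooth muscle members. Replicate 31 was the lowest cuprizone library for all 3, though its smooth muscle median was above that of every control (at most 0.39). In the perivascular fibroblast list 4 of 10 genes were tested and 1 fell, Col6a3, a collagen chain (-2.48 ± 0.51, edgeR adjusted p = 0.0316, and at most 0.118 once control replicate 24 or 26, or else cuprizone replicate 30 or 31, was dropped). Neuron markers had medians of 0.60, 0.03 and 0.81 in replicates 30, 31 and 32. Among the cuprizone libraries replicate 31 was lowest, as for the endothelial genes, but control replicate 24 was lower still for neuron markers (-0.63). With edgeR or limma-voom 0 of the 9 neuron markers passed (DESeq2 called 2 higher, and 2 had an edgeR p under 0.05 before adjustment). Their part in the endothelial values was not tested.

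**Figure D4:**
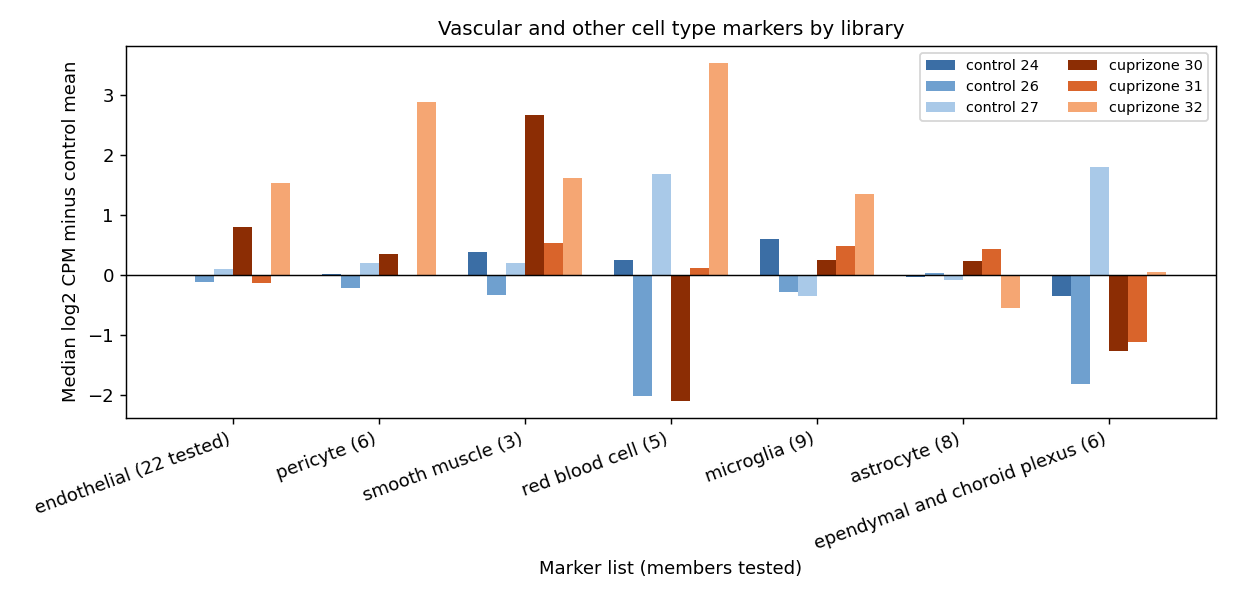
Median log2 CPM of the tested members of 7 marker lists in each of the 6 libraries, relative to the control mean. Pericyte, red blood cell and microglia medians are highest in cuprizone replicate 32 (2.88, 3.53 and 1.34), the smooth muscle median in replicate 30 (2.66), and the choroid plexus median in control replicate 27 (1.79).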

How the data were processed

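RNA co-precipitated with HA-tagged ribosomes was measured in 3 control and 3 cuprizone libraries. The deposited values are raw read counts per Ensembl gene. Per the submitters' processing notes, bcl2fastq 2.17 and build mm10 were used. The sources used here give no aligner, counter, annotation release or strand setting, so reads of overlapping genes and close paralogs may be misassigned.

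Columns were matched to samples by title. Symbols, coordinates and exonic lengths came from GENCODE M21 (GRCm38), in which 37693 of 39017 identifiers were found. The unmatched held 0.388% to 0.461% of a library's counts and stayed in the tests. With R 4.3.3 and edgeR 4.0.16, genes were kept by filterByExpr (minimum count 10, minimum total 15), libraries were scaled by TMM (factors 0.915 to 1.11), and groups were compared with glmQLFit (robust) and glmQLFTest (a test of either direction). P-values were adjusted by Benjamini-Hochberg over the 16569 genes kept. The common biological coefficient of variation was 0.215. Each SE was obtained from the log2 fold change and the F statistic. Log2 levels by library use a prior count of 2. Low members rest on few reads (Cldn5 on 43 to 262, Kcnj8 on 3 to 119). Replicates differed by more than sampling noise (chi-square per degree of freedom 24.4 or more). The procedure was also run on simulated counts, with the outcome not reported here. Those counts held no library that stood apart as cuprizone replicate 32 does, so that run cannot speak to its effect. Alternatives tried were scaling by RLE, by upper quartiles or by TMM without oligodendrocyte genes and the 20 most abundant genes, no filter, CPM over 1 in 3 samples, DESeq2 1.42.0, limma-voom (limma 3.58.1) and leaving out each library.

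The members and lists were chosen with earlier results of these data known. Genes named are all members, Olig1 and, of each other vascular list, the 3 with the smallest adjusted p, of which 1 is not reported here. Ttr, Mbp and the genes said so in place were chosen after their values were seen.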

Additional observations from a re-analysis of the deposited data

How the results depend on the processing

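No paired analysis was possible because the groups share no replicate number. Leaving out control 27 and cuprizone 32 together was chosen after seeing the data. The count of members called higher, 2, was 6 with DESeq2, 0 without that pair and 0 to 6 with each library left out in turn, and it was 2 or 3 with the other scalings, filters and limma-voom. DESeq2 called 1 member lower. In the other vascular lists 13 were higher and 7 lower with DESeq2, and 1 to 9 higher and 2 to 4 lower with a library left out. The mural median was 0.85 without the pair and 0.89 to 2.26 with a library left out, lowest without cuprizone 32. The endothelial median was 0.49 without the pair and 0.35 to 1.18 with a library left out, again lowest without cuprizone 32. In all 14 alternatives it moved by less than the spread between libraries (0.59). That spread itself includes replicate 32, so staying within it cannot show that the median is independent of that library.

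Some log2 fold changes of uncalled members changed sign. Mfsd2a had 0.0088 with RLE and with DESeq2, 0.054 with upper quartiles, 0.012 with no filter, 0.0036 with the CPM filter and 0.11 without the pair. Tjp1 had 0.015 with upper quartiles and 0.21 without the pair, and Vtn -0.17 with limma-voom. Without the pair Egfl7, Sox18, Rgs5 and Vtn had -0.087, -0.18, -0.15 and -1.63. With a library left out the ranges were -0.16 to 0.16 for Mfsd2a, -0.59 to 0.16 for Ocln, -0.17 to 0.16 for Tjp1, -0.36 to 0.47 for Egfl7, -0.085 to 1.18 for Sox18, -0.42 to 1.87 for Rgs5, -0.15 to 3.17 for Kcnj8 and -2.48 to 2.70 for Vtn. The causes were not tested.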
